A study of Mus musculus with 14 samples.

Results

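The genes for the protein components of the cytosolic ribosome were followed across sorted mouse T cells. A gene belonged to the set if its probe sets on the array carried 1 gene symbol and that symbol began with Rpl or Rps and a digit, began with Rplp, or was Rpsa. Kinases of the Rps6k group and symbols that contain -ps, the mark of a named pseudogene, were left out. This rule found 63 of the 19937 genes on the array: 38 with names of the large subunit, 24 with names of the small subunit, and Rps19bp1, which encodes a protein that binds Rps19 and is not part of the ribosome. Of the 63, 54 were standard ribosomal proteins (33 large, 21 small) and 8 were paralogues or related copies, namely Rpl3l, Rpl7l1, Rpl10l, Rpl32l, Rpl39l, Rps4l, Rps23rg1 and Rps27l. A further 20 symbols of the same form, among them Rpl3, Rpl11 and Rps27, occurred only on probe sets that carry several symbols and were not analysed here. Whether probe sets of the 63 genes also read pseudogenes was not tested.

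A ribosome consists of a small subunit, which binds the mRNA and reads its codons, and a large subunit, which joins the amino acids and carries the exit tunnel for the new protein. Each subunit is assembled in the nucleolus from ribosomal RNA and many proteins, nearly all of which are present once per particle. The mRNAs of mammalian ribosomal proteins begin with a run of pyrimidines (a terminal oligopyrimidine or TOP tract), through which their translation responds to growth signals. T cells enlarge their ribosome pool when they are activated and divide.

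Expression was measured on 14 arrays, 1 per sample, all from C57BL/6 mice. Thymocytes sorted for both CD4 and CD8, an immature stage of T cell development, came from the thymus of wild-type (WT) mice (n = 3, all 7 months old, 2 male and 1 female) and of mice labelled ENK KO (n = 2, a 7-month-old male and a 2-month-old female). Spleens gave lymphocytes sorted for CD8, which marks mature cytotoxic T cells, from WT mice (n = 4, all 7 months old, 3 male and 1 female) and from ENK KO mice (n = 5, males of 6, 7 and 9 months and 2 females of 2 months). The design sets ENK KO against WT in each of the 2 populations. What ENK stands for is not written in the labels, which describe no allele, promoter or Cre. The title of the series names Engrailed-2.

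The library labelled spleen ENK KO replicate 28 went against its label. It had log2 expression of 12.20 for Cd4, 6.78 for Cd8a, 9.10 for Cd8b1 and 9.87 for Foxp3, a regulatory T cell gene, whereas Cd4 lay between 6.61 and 6.92 on the other 8 spleen arrays. En2, which encodes Engrailed-2, had log2 values of 6.01 on all 3 thymus WT arrays, 6.01 and 6.14 in thymus ENK KO, 6.19 to 6.93 in spleen WT and 6.12 to 7.87 in spleen ENK KO. These lay mostly below 6.76, the level set here as the minimum for testing, so that En2 does not check the genotype labels. Array medians over all probe sets lay between 7.14 and 7.25. Correlations between arrays of 1 group lay between 0.987 and 0.9959.

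The TOP tract is defined by the first bases of the transcript, and the annotated start sites of the set were read from RefSeq promoter sequences (build GRCm38.p6), which held an entry for 43 of the 54 standard ribosomal protein genes. A C at the annotated start followed by at least 4 more pyrimidines, on the strand of the gene, was present in 9 of the 43 (20.9%) against 2.67% of 17492 protein-coding genes. The 5 stretches that follow were taken from those 9 because their genes lie at different places in the comparison of spleen with thymus. Each runs from 30 bases before to 20 bases after the start, and capitals mark the unbroken run of pyrimidines that begins at the annotated start. They lie at chr2:180257349-180257398 on the plus strand (Rps21), chr17:33955646-33955695 on the minus strand (Rps18), chr11:114668550-114668599 on the plus strand (Rpl38), chr4:86857348-86857397 on the minus strand (Rps6) and chr7:141447621-141447670 on the plus strand (Rplp2).
Rps21: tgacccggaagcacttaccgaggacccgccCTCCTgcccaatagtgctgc
Rps18: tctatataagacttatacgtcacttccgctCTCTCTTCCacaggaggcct
Rpl38: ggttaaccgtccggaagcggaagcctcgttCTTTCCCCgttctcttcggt
Rps6: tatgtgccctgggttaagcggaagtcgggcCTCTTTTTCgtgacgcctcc
Rplp2: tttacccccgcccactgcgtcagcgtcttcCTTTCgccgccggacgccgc
The runs are 5 bases long in Rps21 and Rplp2, 8 in Rpl38 and 9 in Rps18 and Rps6.

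Of these genes, Rps21, Rps18 and Rpl38 were higher in spleen WT than in thymus WT by 1.66, 1.36 and 1.17 log2 units, Rps6 had a difference of -0.076, and Rplp2 was lower, with a difference of -0.54. These genes were chosen for their different places, so their spread does not show how the run relates to the difference. Over the 43 genes the differences ran from -0.54 to 1.66 with the run and from 0.27 to 2.51 without it. The lowest with the run were Rplp2 and Rps6, whose probe sets are considered further below. Over the 43 genes the median log2 difference was 0.77 for the 9 with the run and 1.18 for the 34 without it, given as a description. A start annotated a base away from the true one loses the run, so that its absence says only that these letters are not at the annotated position.

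The same entries, 300 bases each from 250 before to 50 after the start, were searched on both strands for CCGGAAG, the core bound by ETS factors, and for AAGATGGC, the core bound by YY1. CCGGAAG was present in 17 of the 43 genes (39.5%) against 12.9% of all protein-coding genes, and can be seen before the start of Rps21 and Rpl38 above. AAGATGGC was present in 2 (4.65%) against 3.57%. TATAAA, searched on the strand of the gene in the 50 bases before the start, was present in 0 of 43 against 3.81%. The median log2 difference between spleen and thymus was 1.31 for the 17 genes with CCGGAAG and 1.07 for the 26 without it. These matches describe sequence and are no measure of binding.

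Splenic CD8+ cells had more ribosomal protein mRNA than CD4+CD8+ thymocytes, relative to the other transcripts on each array. In WT mice 55 of the 61 genes that could be tested were higher in the spleen, 2 were lower (Rplp2 and Rps19bp1) and 4 did not pass the test (Rps6 and the related copies Rps27l, Rps23rg1 and Rps4l). Over all 13641 genes tested, 30.5% were higher and 38.2% lower by the same rule, an adjusted p under 0.05 from a linear model fitted to all genes with limma. The median difference of the 61 was 1.07 log2 units (2.10-fold), beside -0.045 over all genes. A fold of at least 2 was reached by 32 of the 61 and by 6.8% of all genes. Rpl39l and Rpl3l lay below the level required for testing on all 14 arrays and are counted as not tested.

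The set was among the brightest on the array. The mean over the 14 arrays of 41 of the 63 genes lay above 10.9, the 95th percentile of all values, and the highest value on any array lay between 14.63 and 14.82. Among the standard genes above that percentile 40 of 41 were higher in the spleen, with a median difference of 1.25. Among those below it 12 of 13 were, with a median of 0.64. Across the 54 standard genes the difference and the mean level had a Pearson correlation of 0.23 and a Spearman correlation of 0.10, given as a description, since all genes share the same arrays and levels of different probe sets are not on 1 scale.

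**Figure D1:**
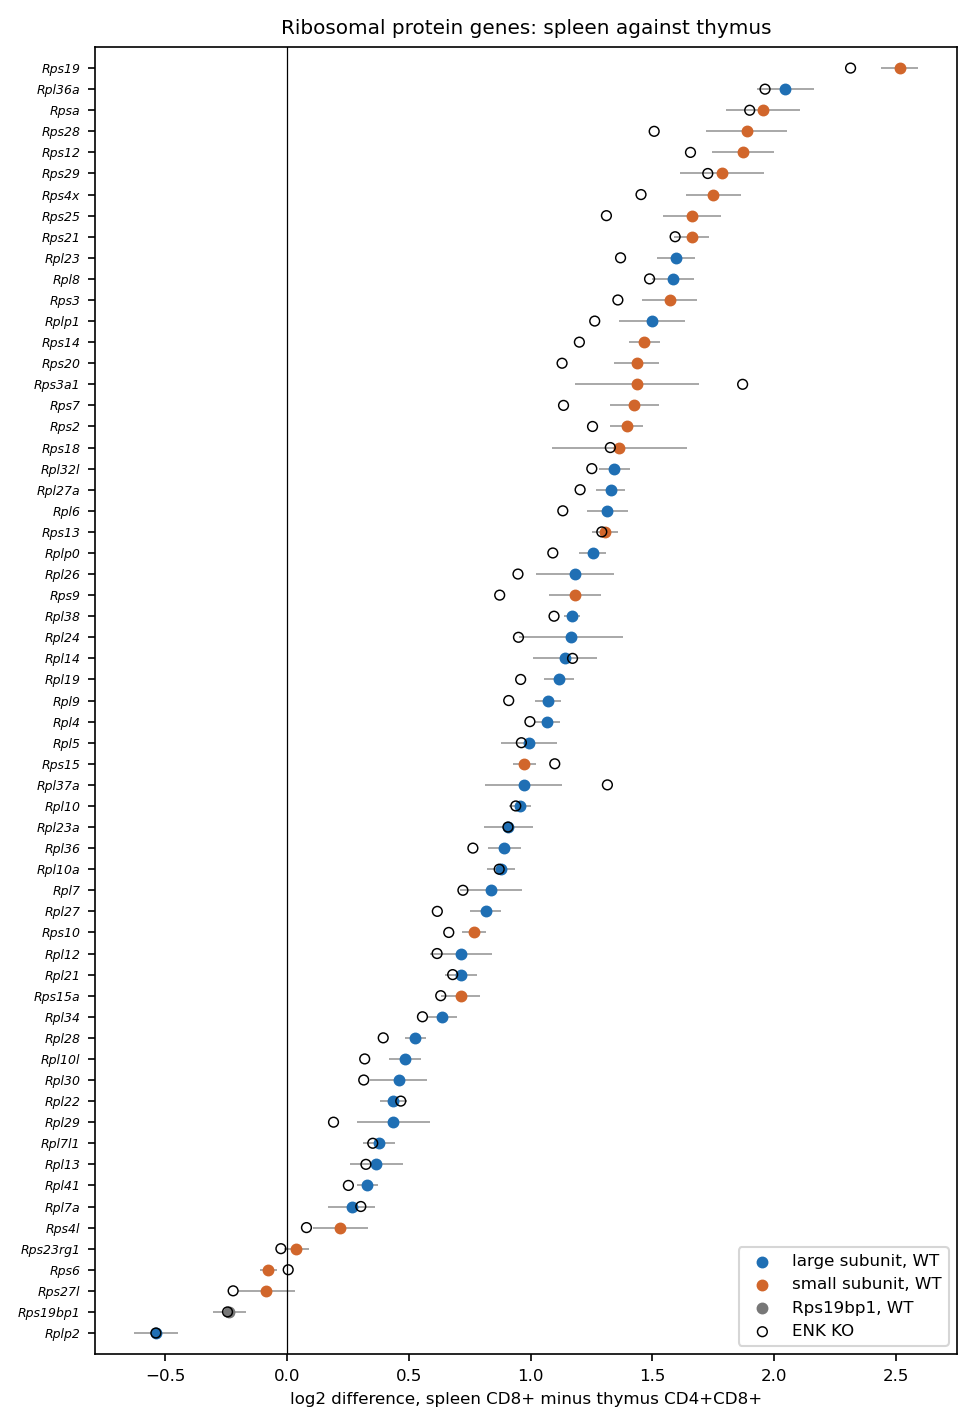
Log2 difference between spleen CD8+ and thymus CD4+CD8+ cells for the 61 genes tested, one gene a line, in order of the WT difference. Filled points are WT with the standard error of the fit (blue large subunit, orange small subunit, grey Rps19bp1) and open circles are ENK KO. Rps19 lies at the top with 2.51 in WT and Rplp2 at the bottom with -0.54.

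The largest difference was that of Rps19, a small subunit protein needed to mature the RNA of that subunit and the gene most often mutated in Diamond-Blackfan anaemia. Its log2 expression was 9.27, 9.53 and 9.24 on the 3 thymus WT arrays and 11.84, 11.83, 11.87 and 11.90 on the 4 spleen WT arrays. It was 9.37 and 9.60 in thymus ENK KO and 11.87, 11.72, 11.84, 11.73 and 11.83 in spleen ENK KO. All 9 spleen arrays lay more than 2 log2 units above the highest thymus array, and within the spleen the genotypes overlapped. The difference was 2.51 in WT (SE 0.075, 5.71-fold, limma adjusted p = 1.7e-11) and 2.31 in ENK KO (SE 0.082, 4.97-fold, limma adjusted p = 1.26e-10).

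Rpsa, a small subunit protein also known as a laminin receptor precursor, had the largest difference after Rps19 and Rpl36a. Its log2 expression was 10.89, 11.36 and 10.74 in thymus WT, 10.84 and 10.99 in thymus ENK KO, and 12.88, 12.97, 12.96 and 13.01 in spleen WT. In spleen ENK KO it was 12.91, 12.95, 12.95 and 12.91 on 4 arrays and 12.36 on replicate 28, the library that went against its label. Thymus and spleen did not overlap in either genotype, with or without that library. The difference was 1.95 in WT (SE 0.153, 3.87-fold) and 1.90 in ENK KO (SE 0.168, 3.73-fold), or 2.01 in ENK KO without replicate 28.

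Most of the other large differences were also in the small subunit. In WT mice Rps28, Rps12, Rps29, Rps4x and Rps21 were higher in the spleen by 1.89, 1.87, 1.79, 1.75 and 1.66 log2 units. Rps4x is the X-linked gene of its protein in the mouse, and Rps28, Rps29 and Rps21 encode some of the smallest proteins of the subunit. For Rps28, thymus WT arrays had 10.69, 10.88 and 10.20 and spleen WT arrays had 12.23, 12.37, 12.70 and 12.61, so that the groups were more than 1 log2 unit apart. In ENK KO mice Rps3a1, which encodes a protein near the mRNA exit side, joined the 8 largest with 1.87, against 1.44 in WT. In both genotypes 8 of the 10 largest differences belonged to the small subunit.

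The large subunit gene among the largest differences was Rpl36a, which is X-linked. Its log2 expression was 11.11, 11.01 and 10.64 in thymus WT and 12.93, 13.07, 12.99 and 12.86 in spleen WT. It was 10.72 and 11.04 in thymus ENK KO and 12.91, 12.91, 12.65, 12.75 and 13.00 in spleen ENK KO. The lowest spleen array stood above the highest thymus array by over 1 log2 unit, and the difference was 2.04 in WT (SE 0.117, 4.12-fold) and 1.96 in ENK KO (3.90-fold). Rpl23 and Rpl8, a core protein of the subunit, followed with 1.60 and 1.58 in WT.

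The mRNAs for the proteins of the large subunit stalk, which recruits elongation factors, went in opposite directions. Rplp0, the base of the stalk, was higher in the spleen by 1.25 in WT and 1.09 in ENK KO, and Rplp1 by 1.50 and 1.26. Rplp2, the partner of Rplp1, was lower: 8.73, 8.86 and 8.61 in thymus WT, 8.13, 8.18, 8.17 and 8.30 in spleen WT, 8.87 and 8.49 in thymus ENK KO, and 8.26, 8.08, 8.22, 8.04 and 8.12 in spleen ENK KO. The thymus arrays all lay above the spleen arrays. The difference was -0.54 in WT (SE 0.09, limma adjusted p = 0.000148) and -0.54 in ENK KO (SE 0.098, limma adjusted p = 0.000355), on 1 probe set. Its mean over all arrays was 8.36, far below 13.56 for Rplp0 and 13.23 for Rplp1. How well this probe set reads Rplp2 mRNA was not tested.

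Several members have roles beside the ribosome. Rpl5, which with Rpl11 binds Mdm2 and so stabilises p53 when ribosome assembly fails, was 11.94, 12.07 and 11.66 in thymus WT and 12.75, 12.93, 13.07 and 12.78 in spleen WT. Its groups did not overlap, and it was higher by 0.99 in WT and 0.96 in ENK KO. Rpl22, whose loss in mice blocks the development of alpha-beta T cells, was 8.16, 8.21 and 8.12 in thymus WT, 8.16 and 8.16 in thymus ENK KO, 8.59, 8.51, 8.69 and 8.62 in spleen WT, and 8.64, 8.52, 8.63, 8.74 and 8.62 in spleen ENK KO. The difference of Rpl22 was 0.44 in WT (SE 0.054) and 0.47 in ENK KO (SE 0.059), below the median of the set, and its groups did not overlap. Rpl10, a protein that joins the large subunit late in assembly, was higher by 0.96 and 0.94, and Rpl7 by 0.84 and 0.72.

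Smaller differences that passed the test in WT were those of Rpl7a (0.27), Rpl41 (0.33), Rpl13 (0.37), Rpl29 (0.44) and Rpl30 (0.46). Rpl29 did not pass in ENK KO, where its difference was 0.19. Several of these WT calls were lost under other settings. Rpl41 had a difference of 0.033 after quantile normalization (limma adjusted p = 0.528). Rpl13 had 0.24 without thymus WT replicate 32 (limma adjusted p = 0.0587), and Rpl29 had 0.37 without spleen WT replicate 40 and 0.30 without thymus WT replicate 7 (limma adjusted p = 0.0558 and 0.11). Rpl7a did not pass without any 1 of the 3 thymus WT arrays or of spleen WT replicates 34, 37 and 40, on the WT arrays alone, or without the 2-month-old animals, with differences from 0.21 to 0.28. Other probe sets of Rpl13 had WT differences from 0.34 to 1.97, with 7 called higher and 1 not called. The other tested probe set of Rpl7a had -0.11 and was not called. Thymus and spleen did not overlap for 58 of the 61 genes in WT (55 higher and 3 lower) and for 55 in ENK KO (53 higher and 2 lower). Over all genes tested, the groups did not overlap with the spleen higher for 32.6% in WT and 29.9% in ENK KO, and with the spleen lower for 39.2% and 40.7%.

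The related copies were a mixed group. Rpl32l was higher in the spleen by 1.34 in WT and 1.25 in ENK KO, Rpl10l by 0.49 and 0.32, and Rpl7l1, a nucleolar factor in the maturation of large subunit RNA, by 0.38 and 0.35. Rpl10l lay below the level required for testing on every thymus array and on most spleen arrays. It read 6.18 to 6.27 in thymus WT and 6.61 to 6.80 in spleen WT, with a spleen WT mean of 6.71. Its calls, counted among the genes higher in the spleen, therefore rest on values near or below that level. Rps27l, a p53 target, had a difference of -0.085 in WT and -0.22 in ENK KO, and Rps4l and Rps23rg1 had 0.22 and 0.039 in WT. The last 3 did not pass the test in either genotype, with an exception for Rps4l under other settings. In WT it passed with the mean of all probe sets (0.25, limma adjusted p = 0.00295), and on the WT arrays alone (limma adjusted p = 0.0157). It also passed there without the 2-month-old animals (limma adjusted p = 0.0339) and without spleen ENK KO replicate 3 (limma adjusted p = 0.0184). In ENK KO it passed with the mean of all probe sets (0.26, limma adjusted p = 0.0044). The median of the 6 copies tested was 0.30 in WT, against 1.15 for the 54 standard genes. A copy can share sequence with its parent gene or with pseudogenes, and how far the probes separate them was not tested.

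**Figure D2:**
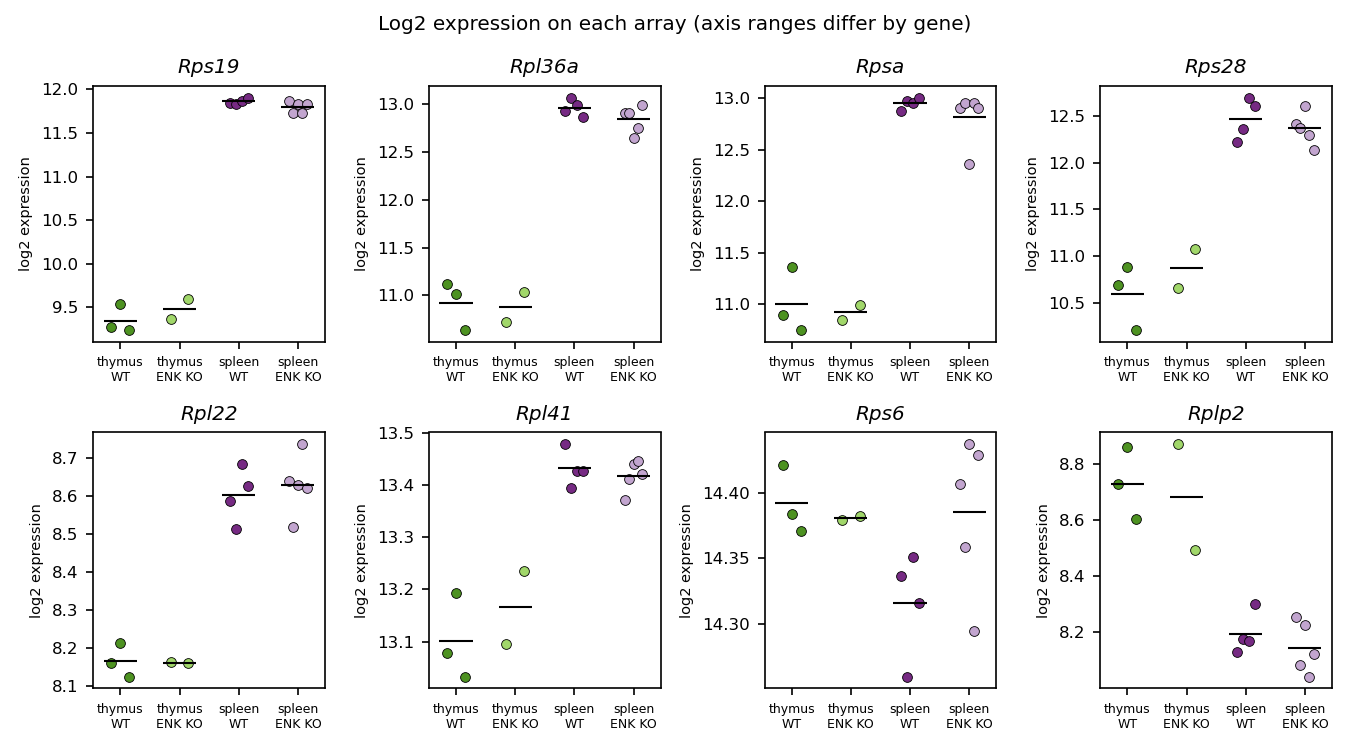
Log2 expression on each of the 14 arrays for 8 genes, with the group means as lines. Each gene has its own axis range: the group means of Rps19, Rpl36a, Rpsa and Rps28 lie over 1 log2 unit apart between thymus and spleen, those of Rpl22 and Rpl41 by less, Rps6 spans 14.26 to 14.44 in all, and Rplp2 is lower in the spleen.

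Rps6, the small subunit protein phosphorylated by S6 kinases, was the standard gene that did not pass the test in either genotype. Its kept probe set read 14.42, 14.38 and 14.37 in thymus WT, 14.34, 14.26, 14.35 and 14.32 in spleen WT, 14.38 and 14.38 in thymus ENK KO, and 14.41, 14.36, 14.44, 14.29 and 14.43 in spleen ENK KO. The WT groups did not overlap, with the spleen lower, and the ENK KO groups did. The WT difference was -0.076 (SE 0.035, limma adjusted p = 0.0705). It passed, lower in the spleen, with each array centred on its median (limma adjusted p = 0.0404), on the WT arrays alone (limma adjusted p = 0.0484) and without spleen ENK KO replicate 25 (limma adjusted p = 0.032). The rule keeps the brightest probe set of a gene, and these values lie near the highest values on the arrays.

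The other 6 probe sets named Rps6 were all higher in the spleen. For those with mean log2 levels of 8.31, 10.42, 11.42, 12.90 and 13.52 the WT differences were 1.56, 2.14, 0.91, 1.16 and 0.56. The sixth, which read 14.15 on its brightest array, had a difference of 0.31. Each of these was past the threshold when every probe set was tested on its own. The kept one, at a mean of 14.37, had -0.076. With the mean of all 7 probe sets as the value of the gene, Rps6 was higher in the spleen by 0.94 in WT (limma adjusted p = 1.52e-08) and by 0.86 in ENK KO (limma adjusted p = 1.05e-07). For this gene the call therefore depended on the probe set, and which of them reads Rps6 mRNA best was not tested.

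**Figure D3:**
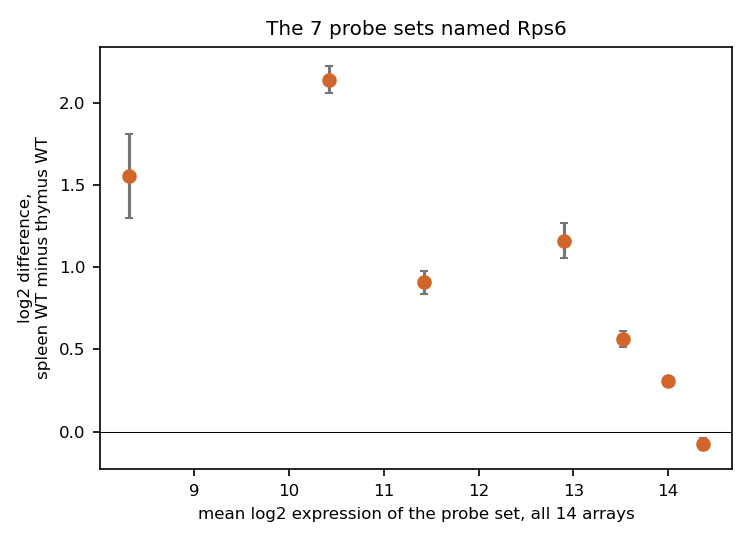
The 7 probe sets named Rps6: mean log2 expression over all arrays against the log2 difference between spleen WT and thymus WT, with the standard error of the fit. The 6 dimmer probe sets lie between 0.31 and 2.14, and the brightest, which was kept, at -0.076.

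The 63 genes had 195 probe sets in all, and 38 genes had more than 1. Of 125 tested probe sets beside the kept ones, 108 were higher in spleen WT, 3 were lower and 14 did not pass, with a median difference of 1.22. The 3 lower ones were named Rpl27a (2) and Rps25 (1), genes whose kept probe sets were higher by 1.33 and 1.66. Probe sets of 1 gene can read the same mRNA and are not replicates.

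By their medians the small subunit genes differed more between populations than the large subunit genes. Among the standard genes 20 of 21 of the small subunit were higher in spleen WT, with a median difference of 1.44 (2.70-fold), and 32 of 33 of the large subunit, with a median of 0.96 (1.94-fold). In ENK KO mice the medians were 1.31 and 0.91. With the copies included, a fold of at least 2 in WT was reached by 17 of 24 genes of the small subunit and 15 of 36 of the large, and in ENK KO by 17 and 11. Over all genes tested that fold was reached by 6.8% in WT and 6.47% in ENK KO, and 30.5% were called higher in spleen WT. No test was made of a score over these genes.

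The gap was seen array by array. The mean log2 value of the 33 large subunit genes minus that of the 21 small subunit genes was 0.026, -0.076 and 0.040 on the thymus WT arrays, and 0.016 and -0.086 in thymus ENK KO. It was -0.488, -0.536, -0.525 and -0.534 in spleen WT, and -0.535, -0.537, -0.479, -0.548 and -0.455 in spleen ENK KO. Its sign and size at 1 array depend on the probes, so only its change between groups can be read, and on that measure no spleen array overlapped with a thymus array. Over all 60 genes with a subunit the change from thymus to spleen was -0.36 in WT and -0.32 in ENK KO, beside a standard deviation within groups of 0.041.

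Both subunit means were higher on every spleen array than on every thymus array. The large subunit mean lay between 10.85 and 11.08 in the 5 thymus samples and between 11.79 and 11.91 in the 9 spleen samples. The small subunit mean lay between 10.81 and 11.16 in the thymus and between 12.27 and 12.43 in the spleen. In WT the SD between arrays was 0.119 for the large and 0.176 for the small subunit in the thymus (n = 3), and 0.020 and 0.038 in the spleen (n = 4). In ENK KO it was 0.025 and 0.097 in the thymus (n = 2), and 0.045 and 0.058 in the spleen (n = 5).

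**Figure D4:**
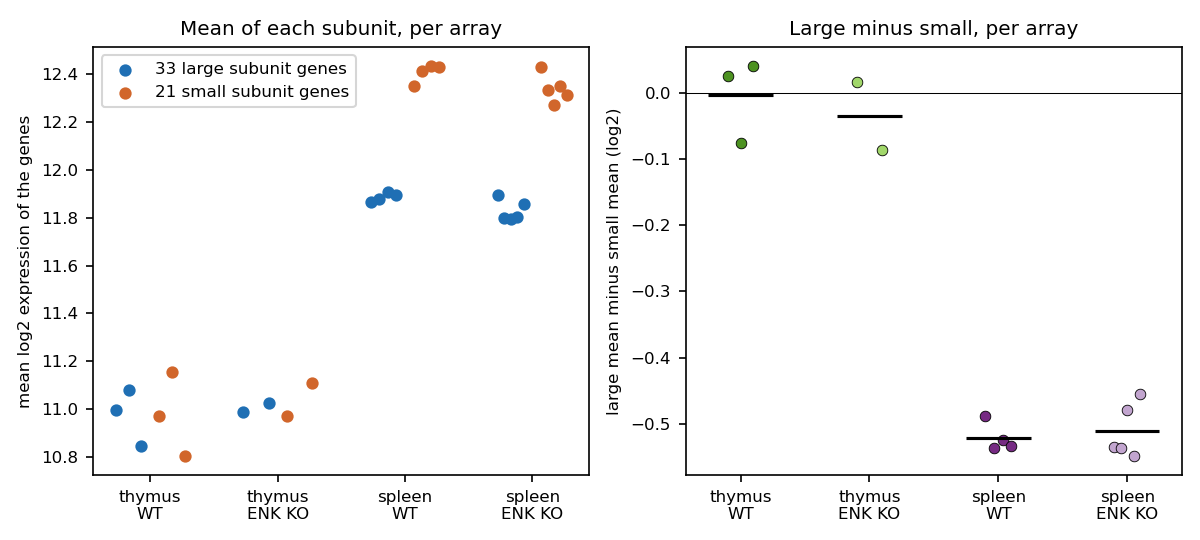
Left, the mean log2 expression of the 33 large (blue) and 21 small (orange) subunit genes on each array. Right, the large mean minus the small mean on each array with group means as lines, near 0 in the thymus and between -0.548 and -0.455 in the spleen.

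In ENK KO mice 54 of 61 genes were higher in the spleen, 2 were lower and 5 did not pass, beside 27.4% higher and 37.1% lower of all genes, and the median was 0.96 (1.94-fold). The 56 genes called in ENK KO were all called in WT, in the same direction, and Rpl29 was called in WT alone. The comparisons share no arrays, but their calls share the spread of each gene, which the same model estimated over all arrays. The ENK KO call of Rpl30 was lost without spleen WT replicate 22, 34 or 37 or thymus WT replicate 32, 38 or 7. Its difference stayed at 0.315 in each case. The calls in WT and ENK KO are therefore not independent of each other. Without spleen ENK KO replicate 28 the count of genes called in ENK KO was 55. Leaving out the 2-month-old animals also removes every ENK KO female and leaves replicate 29 as the only thymus ENK KO array. That alternative therefore cannot separate age from sex.

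Genes with linked functions were read from the same fit, in WT with ENK KO in second place. Of 19 other TOP mRNAs, mostly translation factors, 16 were higher in the spleen and 0 lower, with a median of 0.57, and in ENK KO 15 were higher and 0 lower. Over all genes tested 30.5% were higher and 38.2% lower in WT, and 27.4% and 37.1% in ENK KO. Eef1b2, a subunit of the exchange factor for elongation factor eEF1A, was higher by 2.07 and 2.05, the poly(A) binding protein Pabpc1 by 1.00 and 0.85, the elongation factor Eef1a1 by 0.61 and 0.54, and Tpt1 by 0.61 and 0.62. Fau, which encodes the small subunit protein eS30 as a fusion and whose symbol lies outside the rule, was looked up after values were seen and was higher by 0.60 and 0.44.

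Of 45 factors of RNA polymerase I and ribosome assembly, 34 were higher and 4 lower in WT, with a median of 0.58, and 34 and 3 in ENK KO. The shares of all genes were again 30.5% and 38.2% in WT, and 27.4% and 37.1% in ENK KO. Mdn1, the ATPase that strips assembly factors from large subunit precursors, was higher by 1.80 and 1.79. Fbl, the methyltransferase of small nucleolar RNPs, was higher by 1.63 and 1.52, Rrp1b by 1.50 and 1.43, and Utp20, of the small subunit processome, by 1.38 and 1.32. The lowest was Wdr12, named after its value was seen, a member of the PeBoW complex that matures the large subunit, with differences of -1.97 in WT (SE 0.089, limma adjusted p = 7.51e-10) and -1.91 in ENK KO (limma adjusted p = 3.13e-09). The medians of the standard small and large subunit genes stood above that of the assembly factors.

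The regulators of ribosome synthesis were divided, with 6 of 19 higher and 10 lower in WT, and 6 and 9 in ENK KO. The 6 of 19 stood near the share of all genes called higher in WT (30.5%), and the 10 above the share called lower (38.2%). Myc, the transcription factor that drives ribosome production, was higher in the spleen by 3.02 and 2.85. Mxi1 and Mxd4, which compete with Myc for Max, were lower, with differences of -1.56 and -1.40 in WT and -1.49 and -1.32 in ENK KO. Mdm2 was lower, with -0.73 and -0.75.

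The mitochondrial ribosomal proteins, which serve the separate ribosome of that organelle, were divided. Of 77 genes 22 were higher and 26 lower in WT, with a median of -0.019, and 19 and 22 in ENK KO, with a median of -0.063, shares that lay below the background in both directions. Mrps18b was higher by 1.01 and Mrps15 by 0.85, and Mrps25 and Mrps11 were lower, with -0.78 and -0.56. Of the small nucleolar RNA host genes 3 of 11 could be tested: Gas5, itself a TOP transcript, was higher by 0.76, Snhg11 was lower with -0.27, and Snhg5 had -0.15 and did not pass.

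**Figure D5:**
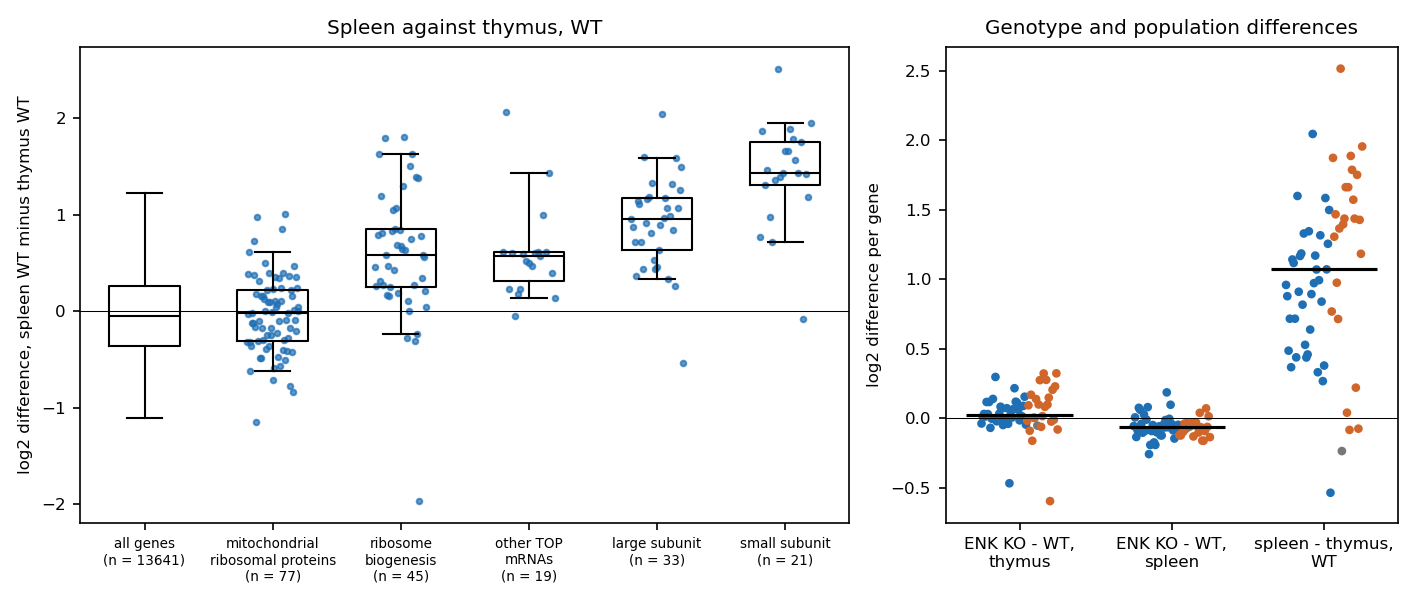
Left, log2 differences between spleen WT and thymus WT by gene list (boxes, quartiles with the median; whiskers, 5th to 95th percentile; points, genes), with medians of -0.045 for all genes, 0.96 for the large and 1.44 for the small subunit. Right, differences of the 61 genes between genotypes in thymus and spleen beside that between populations (blue large, orange small, grey Rps19bp1; lines, medians).

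Markers of other cells were read from the same comparison. Their lists are too short to set their counts against the 30.5% of all genes called higher and the 38.2% called lower. In spleen WT against thymus WT, 2 of 5 tested B cell genes were higher and 0 lower, as were 2 of 2 erythroid and 2 of 3 platelet genes. The mean log2 level of the B cell list lay between 6.88 and 6.99 in thymus WT and between 7.56 and 8.03 in spleen WT, that of the erythroid list between 6.76 and 6.85 and between 7.65 and 8.02, and that of the platelet list between 6.30 and 6.40 and between 7.20 and 7.45. The NK cell list lay between 5.34 and 5.44 in thymus WT and between 6.44 and 6.59 in spleen WT, and of 6 tested myeloid genes 3 were higher and 1 lower. Of 4 tested stromal genes 1 was higher and 1 lower, and of 4 regulatory T cell genes 0 were higher and 1 lower. For B cells 3 of 5 measured genes, and for platelets 2 of 4, stayed below the testing level on all thymus WT arrays. Their part in the ribosomal protein differences was not tested. In such samples fewer cells of a type and less RNA per cell cannot be told apart.

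Genotype left no called difference in the set. In the thymus 0 of 61 genes passed between ENK KO and WT (limma, smallest adjusted p = 1.0), beside 0.0147% of all genes. At an unadjusted p under 0.05 there were 6 of 61 (4 higher and 2 lower), beside 3.53% of all genes. The 61 differences ran from -0.60 to 0.32, with 40 above 0 and 21 below. The 95% interval lay within 2-fold in either direction for 60 of the 61, and differences within those intervals were not resolved with 2 ENK KO arrays.

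The thymus genes with the smallest unadjusted p were Rps15, Rps9, Rpl37a, Rps20, Rps25, Rps14, Rps3a1 and Rps7, none of which passed. Rps3a1 had the widest difference, with log2 values of 9.94, 10.29 and 9.94 in WT against 9.40 and 9.52 in ENK KO, a difference of -0.60 (SE 0.304). Rpl37a had 12.29, 11.82 and 12.23 in WT against 11.65 and 11.64 in ENK KO, a difference of -0.47 (SE 0.187). Both ENK KO arrays lay below all 3 WT arrays for these genes. Rps9 and Rps14 lay above, with differences of 0.32 and 0.17. In all, 8 of 61 genes did not overlap (13.1%), 4 in each direction, beside 9.25% of all genes, a share not far below that of the set. The other 4 of the 8 named had differences of -0.16 (Rps15), 0.27 (Rps20), 0.32 (Rps25) and 0.23 (Rps7).

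In the spleen 0 of 61 genes passed (limma, smallest adjusted p = 0.595), beside 0.00733% of all genes. At an unadjusted p under 0.05 there were 6 (1 higher and 5 lower), beside 8.37% of all genes. The differences were small, from -0.26 for Rpl26 to 0.19 for Rpl5, and the 95% interval lay within 2-fold for all 61. Of the 61, 51 lay below 0, with a median of -0.066, beside 7501 of 13641 genes below 0 and a median of -0.010 for all genes. A shared shift of this size over genes that are measured on the same arrays is 1 observation and not 51, and no test of it was made. The mean log2 level of the platelet list lay between 6.85 and 7.04 in spleen ENK KO and between 7.20 and 7.45 in spleen WT, with no overlap. Of 3 platelet genes tested 1 was lower, Ppbp, a platelet chemokine precursor (-1.44, SE 0.171, limma adjusted p = 0.0215). Gp9 (-0.12, SE 0.045, limma adjusted p = 0.595) and Itga2b (-0.024, SE 0.055, limma adjusted p = 0.906) also lay below 0 and did not pass. The erythroid list lay between 7.12 and 7.73 in spleen ENK KO and between 7.65 and 8.02 in spleen WT, and 0 of 2 tested genes were called. These were Slc4a1 (-0.40, SE 0.116, limma adjusted p = 0.595) and Alas2 (-0.52, SE 0.251, limma adjusted p = 0.605). The part of these cells in the shift was not tested.

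Rpl27 was the spleen gene with the smallest p and the one whose genotypes did not overlap, 1 of 61 (1.64%) beside 1.71% of all genes, so that the share of the set was that of the background. It read 11.45, 11.29, 11.31 and 11.37 in WT and 11.21, 11.18, 11.07, 11.06 and 11.29 in ENK KO, where the highest ENK KO value and the lowest WT value are equal at 2 decimals. The difference was -0.19 (SE 0.056, limma adjusted p = 0.595). The others named were Rpl9 (-0.15), Rpl10l (-0.14), Rps21 (-0.13), Rps10 (-0.12), Rps13 (-0.10), Rpl34 (-0.099) and Rps6 (0.070). All had groups that overlapped.

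The difference between the genotype effects of spleen and thymus was tested directly, and 0 of 61 genes passed (limma, smallest adjusted p = 1.0), beside 0.00733% of all genes. At an unadjusted p under 0.05 there were 2, Rps14 and Rps20, both lower (-0.27 and -0.31), beside 2.99% of all genes. The next were Rps25 (-0.35), Rpl23 (-0.23), Rpl27 (-0.20), Rplp0 (-0.16), Rpl9 (-0.16) and Rpl28 (-0.13). Between genotypes the mean difference of the large minus that of the small subunit genes was -0.029 in the thymus and 0.0098 in the spleen, both within the standard deviation of 0.041 within groups.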

How the data were processed

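RNA of sorted cells was extracted with TRIzol and a column, and 300 ng was labelled as sense cDNA, per the labels' protocols. The values are on a log2 scale, as deposited. The submitters' processing notes name RMA. Its version, the build and whether it was run on all arrays at once are not stated there. RMA sets the arrays that it is run on together to a common scale, so that values show a gene relative to other transcripts. Had it been run on thymus and spleen apart, a difference in processing could not be told apart from one between the populations. This was not tested. Of 28213 probe sets, 21640 carried 1 symbol, 1321 several and 5252 none in the annotation table used. RefSeq (GRCm38.p6) held 21553 of the 21640 symbols and changed 0. For each gene the probe set with the highest mean was kept.

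Tests covered the 13641 genes above 6.76, the 40th percentile of the values, on 2 arrays or more. One limma model with group means held all 14 arrays (limma 3.58.1, R 4.3.3, eBayes with a trend). The Benjamini-Hochberg adjustment ran over every tested gene, and the threshold was 0.05. The labels do not state separate animals, so the p-values rest on the spread between samples, which may be technical, and the number of arrays limits the precision. The script was tested on simulated data.

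The members and the lists were chosen with earlier results of these data known. Each population comparison names the 8 largest differences in each direction whose groups do not overlap, each genotype comparison the 8 smallest p, each list up to 4, and always paralogue pairs, stalk proteins, Rpsa, Rpl5, Rps19 and Rps6. Other members given with values (Rps18, Rpl38, Rpl23, Rpl8, Rpl7a, Rpl41, Rpl13, Rpl29, Rpl30, Rpl32l, Rps23rg1, Rpl27a, Rps25, Rpl24 and Rpl26) were chosen for naming after seeing values. Alternatives included no filter, quantile normalization, median centring, averaging the probe sets of a gene, no trend, each comparison on its own arrays, no 2-month-old animals and each array left out. Testing every probe set on its own was added after seeing the data.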

Additional observations from a re-analysis of the deposited data

Results flagged for a closer look

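In 3 of 32 groups of 4 or 5 spleen values, 1 array stood apart from the rest by Dixon's criterion, where chance gives about 1 in 20. Rpsa read 12.36 on spleen ENK KO replicate 28 (its label) and 12.91 to 12.95 on the other 4, a gap of 0.925 of the range. This is the library with high Cd4 and Foxp3 and low Cd8a. Rps3a1, a small subunit gene, read 10.86 on spleen WT replicate 22 and 11.61 to 11.76 on the other 3, a gap of 0.834 of the range. Rps21, also of the small subunit, read 10.17 on spleen WT replicate 40 and 10.29 to 10.31 on the other 3, a gap of 0.865 of the range, although the whole range is small. All of these values stayed above every thymus array of their genotype.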

How the results depend on the processing

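The count of genes called between populations stayed between 55 and 59 in WT and between 52 and 58 in ENK KO under all alternatives, no gene called in both settings changed direction, and the genotype counts stayed at 0. The large minus small subunit change between populations in ENK KO was -0.373 with the mean of all probe sets and -0.376 without the 2-month-old animals, and ranged from -0.368 to -0.275 with arrays left out. The same change between genotypes in the thymus was 0.0173 without the 2-month-old animals and ranged from -0.0756 to 0.0173 with arrays left out, both ends set by the 2 thymus ENK KO arrays. With the mean of all probe sets Rps6 turned to 0.938 between populations in WT and to -0.0309 between genotypes in the spleen, and Rps13 turned to 0.177 there, which shows the dependence on the probe set. With arrays left out, Rps27l in WT ranged from -0.186 to 0.050 (turned without thymus WT replicate 7), and Rps6 in ENK KO from -0.00785 to 0.0277 (turned without spleen ENK KO replicate 31, 28 or 3, to -0.000251, -0.00785 and -0.00577), differences near 0 that were never called. Rps19bp1 (-0.244 in ENK KO) lost its call there without thymus ENK KO replicate 1 (-0.216, limma adjusted p = 0.0917) and without the 2-month-old animals (-0.219, limma adjusted p = 0.142). Also in ENK KO, Rpl30 (0.315) lost its call on its own arrays, without the 2-month-old animals and with any 1 of 11 arrays left out, Rpl7a without the 2-month-old animals or either thymus ENK KO array, Rpl41 after quantile normalization (0.034), Rpl24 without thymus ENK KO replicate 29 (0.687), and Rpl13 without that array (0.224), spleen ENK KO replicate 31 or 6, or the 2-month-old animals. Calls that changed in WT, and those that Rps6 and Rps4l gained, are given beside their values. No paired analysis was possible because the groups share no replicate numbers. The kept probe set of Rps6 read near the top of the scale, and whether this limited its difference was not tested. The 2 arrays in thymus ENK KO limit what can be seen.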
